A study of Mus musculus with 15 samples.

Results

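The 40 genes described here encode the non-collagen glycoproteins and proteoglycans of the extracellular matrix and the enzymes and chaperones that modify and crosslink collagen and elastin. They were chosen by gene symbol, with earlier results of these data known, so the shares of them called below may depend on that choice. All 40 were found among the 25239 genes of the mouse count table. Of them 38 passed the filter on low counts and were tested, and Mfap2 and Dcn did not pass. The study asked which RNAs are held by the RNA-binding protein Arid5a in ST2 cells, a mouse bone marrow stromal line, and whether interleukin 17 (IL-17), an inflammatory cytokine, changes this. Cells were kept in medium or given 200 ng/mL IL-17, harvested at 3 h, fixed with formaldehyde and subjected to RNA immunoprecipitation (RIP) with an antibody to Arid5a or with mouse IgG2b as the control antibody. The 15 libraries form 4 groups: the IgG RIP in medium (4 libraries), the Arid5a RIP in medium (4), the IgG RIP with IL-17 (3, numbered 2, 3 and 4) and the Arid5a RIP with IL-17 (4). No library of unprecipitated RNA was analysed here, so a level is the abundance of a transcript within a precipitate. All groups come from 1 line, no genetic change is labelled, and the labels do not say whether numbered libraries came from separate cultures; the p-values measure only the spread between these libraries, which may be technical.

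The matrix outside a cell is a network of fibres and gels. Fibronectin and fibrillins are laid down as fibrils, on which elastin, fibulins and latent growth factors are deposited; matricellular proteins such as tenascin-C, thrombospondins and CCN proteins bind the network and cell-surface receptors without being its main scaffold; laminins, nidogens and perlecan form basement membranes; and proteoglycans carry sulphated sugar chains that hold water and bind collagen fibrils. New collagen chains are hydroxylated on proline and lysine and folded with the chaperone Hsp47 (Serpinh1) inside the cell, and lysyl oxidases crosslink collagen and elastin outside it. Marrow stromal cells make much of the matrix on which blood-forming cells sit, and Arid5a is known for binding and stabilising inflammatory mRNAs.

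The libraries held between 939139 (replicate 2 of the IgG RIP in medium) and 5713913 expected counts, with a median of 3048530. Replicate libraries of a group correlated at r = 0.818 to 0.968 over genes. The fibroblast marker Col1a1 and the marrow stromal marker Cxcl12 reached 40792 and 11035 counts in a library, while Thy1 stayed at or under 22 and Lepr at or under 41 counts. Defining markers of blood, epithelial and endothelial cells were near 0: Ptprc at or under 12 counts, Epcam at or under 27 and Pecam1 at or under 36. Summed marker levels ran from 4.90 to 20.8 CPM (counts scaled to library size) for haematopoietic cells and from 8.0 to 69.6 for epithelial cells, against 16058 to 22230 for stromal fibroblasts. The smooth muscle actin gene Acta2, which cultured fibroblasts also use, reached 24513 counts. The IL-17 response genes Ccl2 and Cxcl1 rose in the Arid5a RIP by 3.17 and 4.36 on the log2 scale and in the IgG RIP by 2.47 and 3.89; Ccl7, Nfkbiz and Zc3h12a rose in both as well. The transcript of Arid5a itself did not pass the test in any of the comparisons, and levels of the Arid5a protein were not analysed here.

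Replicate 4 of the Arid5a RIP with IL-17 stood apart from the other 3 in the sum of the matrix genes. The 40 genes summed to 23236 CPM there, beside 30500 to 32831 in replicates 1 to 3, 20923 to 23049 in the Arid5a RIP in medium, 23180 to 26718 with IgG in medium and 26049 to 27626 with IgG and IL-17. The 1485 olfactory and vomeronasal receptor genes of the table, which a stromal cell is not known to use, summed to 4191 CPM in replicate 4 and to 1284 to 1596 in replicates 1 to 3; in medium they summed to 3352 to 5423 with Arid5a and 1798 to 3163 with IgG, and to 2224 to 3490 with IgG and IL-17. The part of this signal in the Arid5a differences was not tested.

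**Figure D1:**
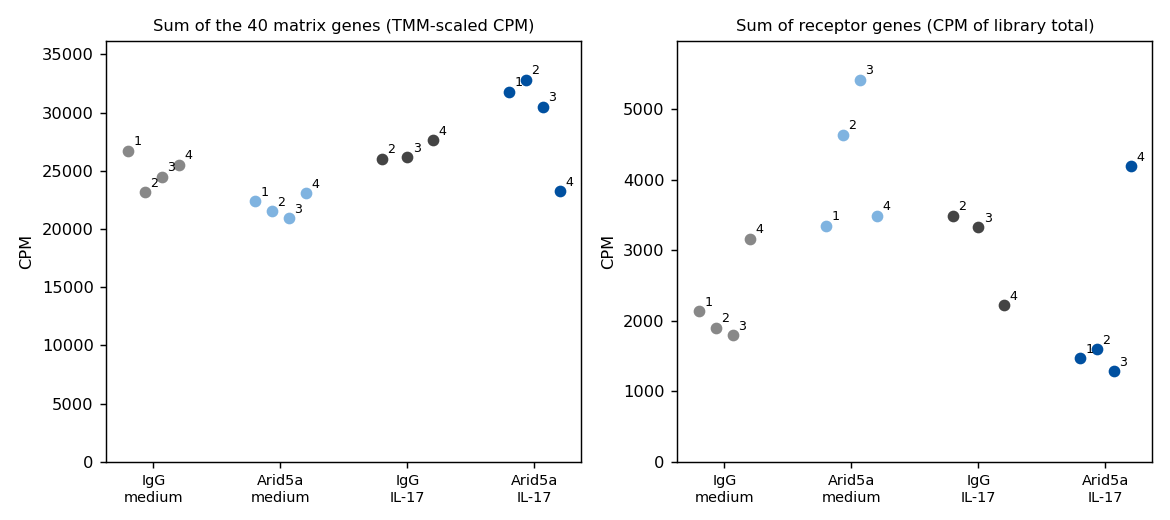
Sum of the 40 matrix genes (left, CPM scaled by TMM factors) and of the 1485 olfactory and vomeronasal receptor genes (right, CPM of the library total) in each library, numbered by replicate. Replicate 4 of the Arid5a RIP with IL-17 has 23236 CPM of matrix genes against 30500 to 32831 in the other 3, and 4191 CPM of receptor genes against 1284 to 1596.

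Together the 40 genes made up 2.20% to 2.91% of the counts of each library. Levels between genes are compared as FPKM, the authors' deposited unit, which divides by transcript length and depth. Fn1, encoding fibronectin, stood highest at 1191 ± 122 FPKM (mean ± SD over the 15 libraries). It was followed by Bgn (biglycan, a small proteoglycan; 722 ± 161 FPKM), Thbs1 (thrombospondin 1; 662 ± 99.2), Ccn2 (connective tissue growth factor; 613 ± 139.8), Sparc (osteonectin; 519.9 ± 51.1), Serpinh1 (514 ± 36.5) and Lox (the founding lysyl oxidase; 421 ± 68.0). Neighbours in that order from Bgn down to Serpinh1 differed by less than the larger of their SDs, whereas Fn1 in its lowest library (995 FPKM) was above Bgn in its highest (964). In all, 11 genes averaged at least 100 FPKM, 17 lay between 10 and 100, and 12 lay under 10.

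Within each role a few genes carried most of the signal. Of the microfibril and elastic fibre genes, Efemp2 (fibulin 4; 138 ± 14.1 FPKM), Fbln2 (100.4 ± 11.7) and Fbn1 (fibrillin 1; 73.9 ± 15.8) were well above Fbn2 (fibrillin 2; 0.75 ± 0.49) and Eln (elastin; 0.68 ± 0.44). Of the proteoglycans, Bgn was high and Vcan (versican, a large chondroitin sulphate proteoglycan) was at 43.0 ± 6.7 FPKM, while Lum (lumican) and Dcn (decorin) were at 1.4 ± 1.4 and 0.88 ± 0.85. Among lysyl oxidases Lox was followed by Loxl3 (60.6 ± 8.0 FPKM), Loxl1 (43.6 ± 5.5) and Loxl4 (23.4 ± 3.9), and Loxl2 was at 2.1 ± 1.1. Tnc (tenascin-C) was at 26.2 ± 8.0 FPKM, Postn (periostin) at 2.1 ± 1.3, Hspg2 (perlecan) at 49.5 ± 5.3 and Lamc1 (laminin gamma 1 chain) at 29.5 ± 4.5. The 9 tested genes under an average of 5 on the log2 CPM scale have few reads behind them, and their folds have wide errors.

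**Figure D2:**
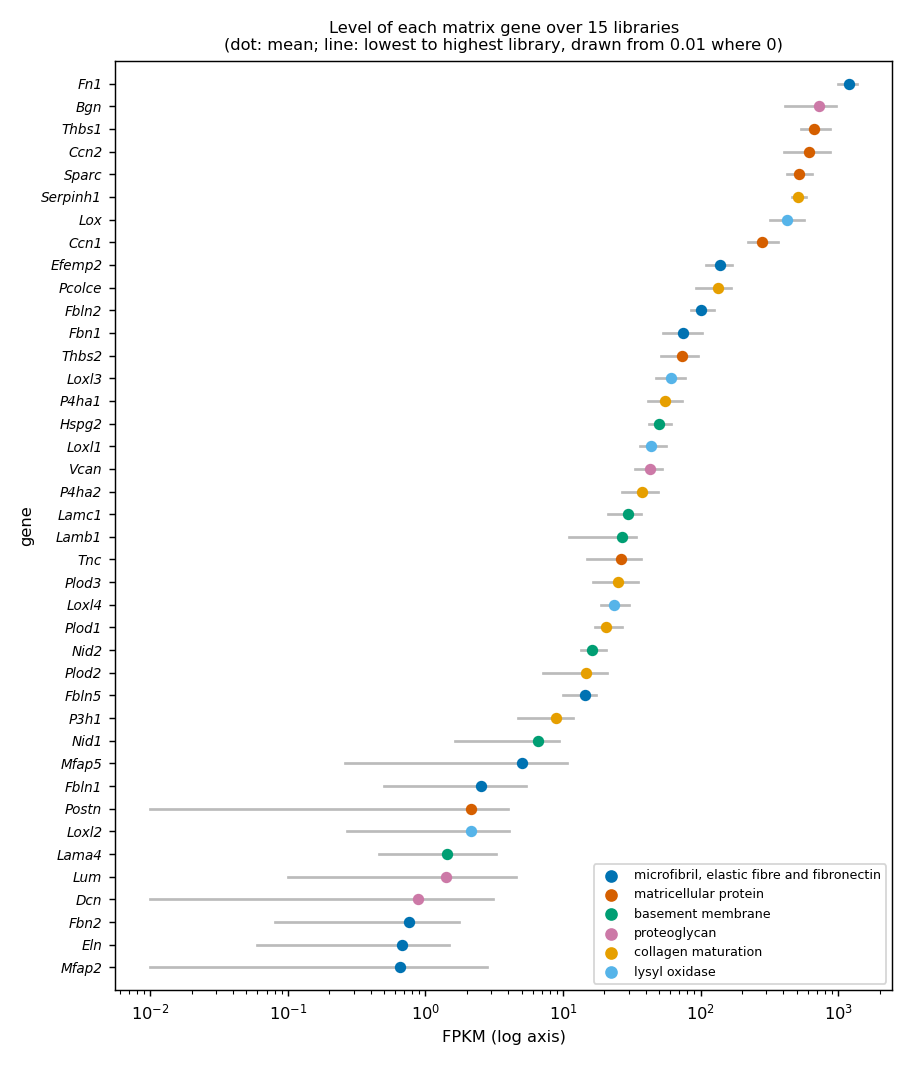
FPKM of the 40 matrix genes on a log axis, coloured by role; dots are means over the 15 libraries and lines run from the lowest to the highest library, drawn from 0.01 where a library was at 0. Fn1 stands above the others at 1191 FPKM, and Mfap2, Eln, Fbn2 and Dcn average under 1 FPKM.

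Comparisons rest on counts scaled by TMM factors, tested for all 17835 genes that passed the filter with edgeR's quasi-likelihood test and Benjamini-Hochberg adjustment at 0.05; a gene is called below when its adjusted p is under 0.05. With these factors the 5390 well-expressed genes (an average of at least 5 on the log2 CPM scale, 29 of the matrix genes among them) were not centred on 0. Their median log2 fold was -0.19 for Arid5a over IgG in medium, 0.15 for the same with IL-17, 0.30 for IL-17 over medium within the Arid5a RIP and -0.04 within the IgG RIP. Folds of single genes are therefore also given as rescaled folds, that is with TMM factors taken from the well-expressed genes alone, which bring each of these medians to -0.01.

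No matrix gene was called enriched in the Arid5a RIP over the IgG RIP. In medium, 0 of the 38 genes were called higher and 1, P4ha1, was called lower. Over all genes 0.0561% were called higher and 0.572% lower, and among the well-expressed 0.0742% and 1.86%. Without adjustment, at p under 0.05, 7 of the 38 were lower and 0 higher, beside 8.28% and 4.5% of all genes; among the well-expressed, 6 of the 29 matrix genes were lower, beside 22.4% of all well-expressed genes. The median log2 fold of the 38 was -0.18, beside 0.04 for all genes tested and -0.19 for the well-expressed, and it was -0.00 with factors from the well-expressed genes. With those factors 0 of all genes tested were called in medium in either direction. With IL-17, 0 of the 38 were called in either direction by edgeR's quasi-likelihood test, where 0.0673% of all genes were called; 1 was higher (P4ha2) and 1 lower (Fbn2) at an unadjusted p under 0.05, beside 4.74% and 4.21% of all genes, and DESeq2 and limma-voom also called 0. The median log2 fold with IL-17 was 0.14, and -0.02 with factors from the well-expressed genes. The SEs of the 29 well-expressed matrix genes, 0.11 to 0.27 on the log2 scale in medium and 0.12 to 0.29 with IL-17, set what a comparison of this size could show.

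P4ha1 (chr10:59323197-59373304, GRCm38) encodes the catalytic alpha 1 subunit of prolyl 4-hydroxylase, the enzyme that hydroxylates proline in new collagen chains. Without IL-17, the IgG libraries held 190.3, 264, 281 and 273 CPM of P4ha1 and the Arid5a libraries 152, 149, 142 and 178 CPM. After IL-17 the IgG libraries held 156, 223 and 216 CPM and the Arid5a libraries 276, 285, 235 and 197. In medium all 4 Arid5a libraries lay below all 4 IgG libraries, and with IL-17 the 2 antibodies overlapped. The means in medium were 252 ± 41.7 CPM (SD, n = 4) with IgG and 155 ± 15.8 CPM (SD, n = 4) with Arid5a. The log2 fold of Arid5a over IgG was -0.69 ± 0.16 (SE; adjusted p = 0.0307) in medium and 0.33 ± 0.17 with IL-17 (adjusted p = 0.562). The rescaled fold in medium was -0.52 ± 0.13 (adjusted p = 0.138), and the call was also lost when any 1 of the IgG medium replicates 2, 3 and 4 or any 1 of the Arid5a medium libraries was left out.

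Plod2 (chr9:92539636-92608428), the lysyl hydroxylase that acts on the telopeptide lysines of collagen, showed a like order of levels without passing the test. Plod2 levels in medium were 39.5, 69.6, 52.4 and 37.5 CPM with IgG and 25.1, 21.9, 35.5 and 34.2 CPM with Arid5a. Under IL-17 they came to 55, 70.0 and 46.4 CPM with IgG and 75.3, 80.7, 65.1 and 68.2 with Arid5a. In medium the Arid5a libraries were again all below the IgG libraries. The log2 fold of Arid5a over IgG was -0.72 ± 0.22 (SE; adjusted p = 0.134) in medium and 0.34 ± 0.23 with IL-17 (adjusted p = 0.688), and DESeq2 called the fold in medium, at -0.68.

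In medium the Arid5a libraries were all below the IgG libraries for 6 of the 38 genes, beside 4.05% of all genes tested. All 6 were well-expressed, and 602 of the 5390 well-expressed genes had this order. Besides P4ha1 and Plod2, the genes with this order were Tnc, Ccn1, Ccn2 and Lox. Their log2 folds were -0.42 ± 0.16 for Tnc, -0.28 ± 0.14 for Ccn1, -0.42 ± 0.13 for Ccn2 and -0.26 ± 0.12 for Lox, and none of these was called (adjusted p = 0.239, 0.379, 0.124 and 0.353). Bgn had the opposite sign, at 0.19 ± 0.14 (adjusted p = 0.599), with overlapping groups. With IL-17, Postn alone had groups that did not overlap, beside 5.3% of all genes, higher with Arid5a at 1.24 ± 0.70 (adjusted p = 0.612), and it had at most 61 counts in a library.

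**Figure D3:**
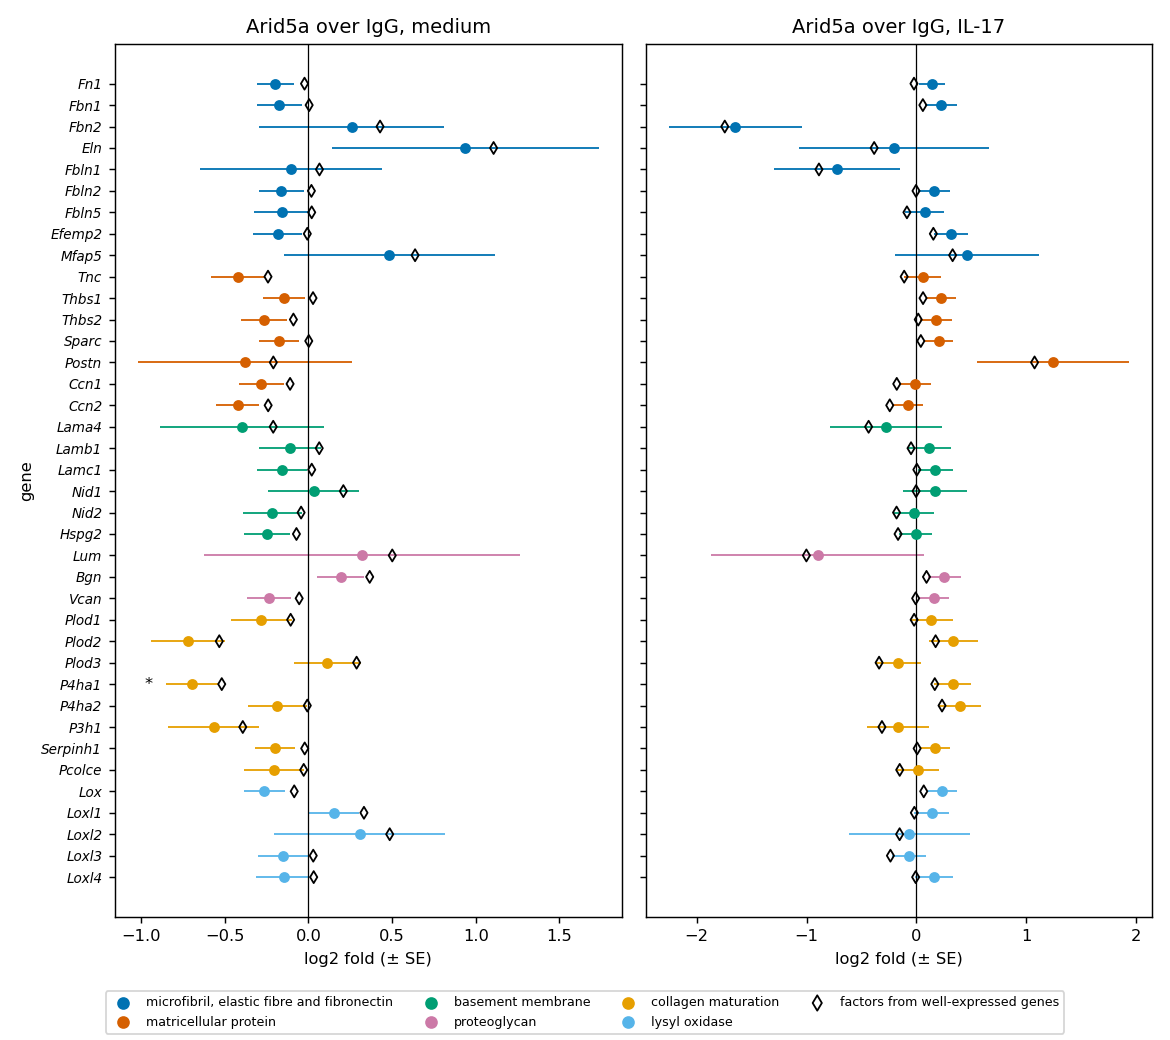
Log2 fold of the Arid5a RIP over the IgG RIP for the 38 tested matrix genes, in medium and with IL-17; dots with bars are folds with TMM factors ± SE, coloured by role, and open diamonds are the same folds with factors from well-expressed genes. The star marks P4ha1, the 1 called gene, at -0.69 in medium; the diamonds sit closer to 0 than the dots for most of the well-expressed genes.

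Whether IL-17 changed the Arid5a over IgG ratio was tested as the difference of the 2 log2 folds. P4ha1 was the 1 of 38 genes called, where 0.976% of all genes were called. Among the well-expressed it was 1 of 29 matrix genes called higher, near the 2.82% of all well-expressed genes called higher. Its ratio was higher with IL-17 by 1.02 ± 0.23 (SE; adjusted p = 0.0223), made up of 0.68 ± 0.15 for IL-17 over medium within the Arid5a RIP and -0.35 ± 0.17 within the IgG RIP. The rescaled difference was 0.68 ± 0.19 (adjusted p = 0.157). After rescaling 0 of all genes tested were called for this difference. With TMM factors, P4ha1 was also not called when 1 of IgG medium 3, Arid5a medium 2 or 3, IgG IL-17 2, or Arid5a IL-17 1 or 2 was left out. Plod2 had a difference of 1.05 ± 0.32 (adjusted p = 0.0908). At an unadjusted p under 0.05, 13 of the 38 genes had a higher ratio with IL-17 and 1, Fbn2, a lower one, beside 9.51% and 6.77% of all genes; all 13 were among the 29 well-expressed matrix genes, beside 27.5% of all well-expressed genes higher; the median of 0.32 became -0.03 with factors from well-expressed genes.

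A group of these transcripts was higher with IL-17 in the Arid5a RIP. In such bulk precipitates more cells that express a gene and more RNA per cell cannot be told apart. In this RIP 14 of the 38 genes were called higher and 1 lower, that is 36.8% higher beside 4.84% of all genes tested higher and 0.813% lower. All 14 were among the 29 well-expressed matrix genes, of which they make up 48.3%, while 15.5% of all well-expressed genes were called higher. The Arid5a groups did not overlap for 12 genes higher and 2 lower with IL-17, beside 10.7% and 9.25% of all genes. The 12 were all well-expressed, and 1563 of the 5390 well-expressed genes were higher without overlap. By role, 4 of 7 matricellular genes, 3 of 9 tested microfibril and elastic fibre genes, 2 of 3 tested proteoglycans, 2 of 8 collagen maturation genes, 2 of 5 lysyl oxidases and 1 of 6 basement membrane genes were called higher. With factors from the well-expressed genes 5 of the 38 were called higher, all of them well-expressed, beside 0.645% of all genes and 2.06% of the well-expressed. The median log2 fold went from 0.31 to -0.00. Tnc, Ccn2, Fbn1, Lox and Plod2 were called with each of TMM, upper-quartile, library-total, well-expressed and DESeq2 scaling.

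In the IgG RIP, where Arid5a was not targeted, 0 of the 38 genes were called with IL-17 by edgeR's quasi-likelihood test, beside 0.493% of all genes; 5 were higher and 2 lower at an unadjusted p under 0.05, beside 5.03% and 6.12% of all genes. The IgG groups did not overlap for 5 genes higher (Fbn1, Tnc, Ccn2, Vcan and Lox) and 1 lower (Thbs1), beside 4.27% and 3.32%. All of these were well-expressed, and 267 of the 5390 well-expressed genes were higher and 344 lower without overlap. DESeq2 called 2 and limma-voom 1, and the share of all genes that these methods called is not given here. With factors from well-expressed genes 2 were called higher, Tnc and Ccn2, beside 0.336% of all genes and 0.872% of the well-expressed. A further comparison, chosen after the data were seen, averaged the IL-17 fold over both antibodies, which uses all 15 libraries and leaves the antibody aside. It called 10 of the 38 genes higher (26.3%) and 0 lower, beside 2.6% and 0.662% of all genes and 7.88% of the well-expressed genes higher. These were Fn1, Fbn1, Tnc, Thbs2, Ccn2, Bgn, Vcan, Plod2, Lox and Loxl4. Of them Fbn1, Tnc, Ccn2, Bgn, Vcan, Plod2 and Lox were called under all 5 scalings and when any 1 library was left out. After rescaling, 7 of the 38 were called higher and 1, Thbs1, lower. Beside this stood 0.992% and 1.28% of all genes, and 2.99% in each direction of the well-expressed. For the other settings the share of all genes is not given, so those calls do not set matrix genes apart. The averaged comparison shares its libraries with the other IL-17 comparisons and is not independent of them.

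Some cell type markers were also called in the Arid5a RIP. With IL-17 over medium there, 2 of 4 smooth muscle markers (Acta2 at 0.50 ± 0.11 and Cnn1 at 0.86 ± 0.25), 2 of 6 marrow stromal markers (Vcam1 and Csf1) and 2 of 8 stromal fibroblast markers (Col1a2 and Col3a1) were called higher, beside 4.84% of all genes and 15.5% of the well-expressed. None of these 6 was called after rescaling. The smooth muscle markers summed to 3503 to 4146 CPM in medium and 4324 to 5776 CPM with IL-17. The summed endothelial markers ran from 33.9 to 48.7 CPM in medium and from 10.03 to 38.5 with IL-17, the epithelial from 19.9 to 36.2 and from 8.0 to 23.5, and the haematopoietic from 14.5 to 16.1 and from 6.84 to 9.57. No marker of these 3 lists was called. In the IgG RIP the haematopoietic sum also went from 12.6 to 20.8 CPM in medium to 4.90 to 8.57 CPM with IL-17. There 1 of 6 marrow stromal markers was called lower with IL-17. For Arid5a over IgG in medium 1 of 8 stromal fibroblast markers was called lower, and it was not called after rescaling. The part of these markers in the matrix gene differences was not tested.

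The counts of matrix genes called moved when single libraries were left out. The share of all genes called in those fits is not given, so the counts do not compare matrix genes with others. Of the 15 matrix genes called with IL-17 in the Arid5a RIP, the count fell to 7 without its IL-17 replicate 2, and to 9 without IL-17 replicate 1, IL-17 replicate 3 or medium replicate 3, all of them higher. Without replicate 4 of the Arid5a RIP with IL-17, 17 matrix genes were called higher and 1 lower in the Arid5a RIP with IL-17 in place of 14 and 1, 14 in place of 10 with both antibodies averaged, and 2 in place of 1 for the difference of ratios, Lox being added at 0.60. The antibody comparison in medium still called P4ha1 alone, and that with IL-17 still called 0.

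Among the called matricellular genes the largest fold was that of Tnc, a hexameric glycoprotein of remodelling and injured tissue (chr4:63959785-64047015, GRCm38). Tnc was measured at 129, 202, 136 and 135 CPM in the IgG medium libraries and at 98.4, 107, 114 and 123 CPM in the Arid5a medium libraries. The IL-17 libraries gave 222, 227 and 227 CPM (IgG) and 263, 273, 227 and 173 CPM (Arid5a). With IL-17 every library lay above every medium library of the same antibody, although replicate 2 of IgG in medium, the smallest library, was above the lowest Arid5a library with IL-17. The log2 fold was 1.08 ± 0.16 (SE; adjusted p = 3.23e-05) in the Arid5a RIP, 0.60 ± 0.17 in the IgG RIP (adjusted p = 0.103) and 0.84 ± 0.12 (SE; adjusted p = 7.22e-06) averaged, a 1.79-fold level. Rescaled, these were 0.76 ± 0.13 (adjusted p = 0.00181), 0.63 ± 0.14 (adjusted p = 0.0313) and 0.70 ± 0.10 (adjusted p = 3.42e-05).

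Ccn2 (chr10:24595442-24598683) codes for a secreted CCN protein that binds integrins and growth factors. The IgG libraries had 1088, 1111, 1544 and 1266 CPM of Ccn2 in medium and 1869, 1574 and 1679.6 CPM with IL-17. Those of Arid5a had 853, 1025, 885 and 976 CPM in medium and 1576, 1773, 1791 and 1319.7 CPM with IL-17. The groups with IL-17 were above those in medium for each antibody with no overlap. Its log2 fold was 0.79 ± 0.13 (SE; adjusted p = 0.000174) in the Arid5a RIP, 0.45 ± 0.14 in the IgG RIP (adjusted p = 0.149) and 0.62 ± 0.09 (SE; adjusted p = 4.89e-05) averaged. The rescaled fold of Ccn2 was 0.48 ± 0.11 (adjusted p = 0.0165) in the Arid5a RIP and 0.48 ± 0.11 (adjusted p = 0.0406) in the IgG RIP.

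Thbs2 (thrombospondin 2) was called in the Arid5a RIP and Thbs1, its more abundant relative, was not. With the control antibody, Thbs2 stood at 398, 311, 416 and 473 CPM in medium and 437, 420.3 and 501 CPM after IL-17. Arid5a RIPs gave 306, 357, 335 and 338 CPM in medium and 513, 602, 497 and 432 CPM after IL-17. The Arid5a groups did not overlap, the IgG groups did. Thbs2 had a log2 fold of 0.61 ± 0.14 (SE; adjusted p = 0.00483) in the Arid5a RIP and 0.17 ± 0.15 in the IgG RIP; the first was 0.30 ± 0.12 (adjusted p = 0.152) after rescaling and missed the threshold without Arid5a IL-17 replicate 2.

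Without IL-17, the IgG libraries held 4397, 3286, 3989 and 4793 CPM of Thbs1 and the Arid5a libraries 3532, 3889, 3523 and 3943 CPM. After IL-17 the IgG libraries held 3212, 3172 and 3270.2 CPM and the Arid5a libraries 4199, 4280.2, 3668 and 2913. In the IgG RIP the 3 libraries with IL-17 were below all 4 in medium, and in the Arid5a RIP the groups overlapped. Thbs1 had a log2 fold of -0.36 ± 0.13 in the IgG RIP (adjusted p = 0.272) and 0.02 ± 0.12 in the Arid5a RIP (adjusted p = 0.946). Averaged over both it was -0.17 ± 0.09 (SE; adjusted p = 0.353), and -0.32 ± 0.07 (adjusted p = 0.0153) rescaled, where it was called lower. Sparc, which binds collagen, was called in the Arid5a RIP at 0.40 ± 0.12 (SE; adjusted p = 0.041) but its rescaled fold was 0.09 ± 0.09 (adjusted p = 0.582).

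Fbn1, the main component of extracellular microfibrils (chr2:125300594-125506485), had the largest rise of the called microfibril genes. Fbn1 levels in medium were 710.1, 620.0, 626 and 504 CPM with IgG and 539.5, 508, 529 and 603 CPM with Arid5a. Under IL-17 they came to 816, 807 and 824 CPM with IgG and 970.2, 1103, 1041 and 703 with Arid5a. The 3 IgG libraries with IL-17 lay close together and above all IgG libraries in medium, and the Arid5a groups did not overlap either. The log2 fold was 0.81 ± 0.13 (SE; adjusted p = 0.000207) in the Arid5a RIP, 0.41 ± 0.14 in the IgG RIP (adjusted p = 0.227) and 0.61 ± 0.10 (SE; adjusted p = 0.000125) averaged. Rescaling gave 0.49 ± 0.10 (adjusted p = 0.0102) with Arid5a and 0.44 ± 0.11 (adjusted p = 0.0602) with IgG.

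Fn1 was measured at 9669.5, 8544, 8527 and 9100.2 CPM in the IgG medium libraries and at 8552, 7064, 7339 and 8318 CPM in the Arid5a medium libraries. The IL-17 libraries gave 9506, 10017 and 10215 CPM (IgG) and 12054, 11648, 11279 and 8721 CPM (Arid5a). Replicate 4 of the Arid5a RIP with IL-17 was close to the medium libraries, and the other 3 were the highest of all. For Fn1 the log2 fold was 0.48 ± 0.11 (SE; adjusted p = 0.00649) in the Arid5a RIP and 0.15 ± 0.12 in the IgG RIP; both rescaled folds were 0.17, and neither was called. Fbln2, which binds fibronectin and fibrillin fibrils, had a log2 fold of 0.49 ± 0.13 (SE; adjusted p = 0.0243) in the Arid5a RIP and a rescaled fold of 0.18 ± 0.10 (adjusted p = 0.302).

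The IgG libraries had 396, 372, 453 and 352 CPM of Fbln2 in medium and 430.0, 405 and 493 CPM with IL-17. Those of Arid5a had 384, 343, 339 and 339 CPM in medium and 540.0, 568, 491 and 378 CPM with IL-17. Its Arid5a groups overlapped, since replicate 4 with IL-17 was below replicate 1 in medium.

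Fbn2 was the 1 gene called lower with IL-17 in the Arid5a RIP. With the control antibody, Fbn2 stood at 4.19, 19.1, 5.78 and 8.01 CPM in medium and 7.28, 3.85 and 14.8 CPM after IL-17. Arid5a RIPs gave 9.77, 9.09, 12.3 and 9.58 CPM in medium and 2.10, 0.91, 3.06 and 4.81 CPM after IL-17. These levels rest on 4 to 41 counts a library. The log2 fold of Fbn2 was -1.91 ± 0.57 (SE; adjusted p = 0.0388) in the Arid5a RIP and -0.00 ± 0.79 in the IgG RIP. Its rescaled fold was -2.17 ± 0.59 (adjusted p = 0.0519), and the call was lost when any 1 Arid5a library other than replicate 4 with IL-17 was left out.

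Vcan (chr13:89655309-89743027) and Bgn (chrX:73483601-73495936) were the proteoglycans called higher. Without IL-17, the IgG libraries held 426, 348, 403 and 387 CPM of Vcan and the Arid5a libraries 317, 346, 352 and 317 CPM. After IL-17 the IgG libraries held 436, 489.6 and 504 CPM and the Arid5a libraries 579, 579, 564 and 403. Medium and IL-17 libraries did not overlap with either antibody. The log2 fold of Vcan was 0.67 ± 0.13 (SE; adjusted p = 0.00142) in the Arid5a RIP, 0.28 ± 0.14 in the IgG RIP and 0.48 ± 0.10 (SE; adjusted p = 0.00243) averaged; rescaled, the averaged fold was 0.33 ± 0.08 (adjusted p = 0.0139) and the Arid5a fold 0.36 ± 0.10 (adjusted p = 0.0717).

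Bgn levels in medium were 1710.1, 1022, 995 and 1232 CPM with IgG and 1279, 1431, 1418 and 1549.9 CPM with Arid5a. Under IL-17 they came to 1576, 1733 and 1859 CPM with IgG and 2146, 2299, 2209.9 and 1567 with Arid5a. Replicate 1 of IgG in medium lay within the range of the IgG libraries with IL-17, and the Arid5a groups were separated by a narrow gap. For Bgn the log2 fold came to 0.53 ± 0.14 in the Arid5a RIP (adjusted p = 0.0201) and 0.47 ± 0.15 in the IgG RIP (adjusted p = 0.176), and 0.50 ± 0.10 (SE; adjusted p = 0.0033) averaged. Their difference was 0.06 ± 0.21. After rescaling, Bgn was not called in either RIP taken alone, and it was still called with both averaged. Without replicate 1 of IgG in medium, the fold of Bgn in the IgG RIP was 0.67 and was called (adjusted p = 0.0104). That library held the highest Bgn level of the IgG libraries in medium. Leaving it out raises the fold by construction, so this call adds no separate evidence.

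Lox oxidises lysines of collagen and elastin so that they crosslink. Lox was measured at 1924, 1941, 1679 and 1772 CPM in the IgG medium libraries and at 1417, 1671, 1436 and 1572 CPM in the Arid5a medium libraries. The IL-17 libraries gave 2094, 2100.0 and 2017 CPM (IgG) and 2594, 2874, 2415 and 1862 CPM (Arid5a). Groups with IL-17 and in medium did not overlap for either antibody. Lox had a log2 fold of 0.68 ± 0.12 (SE; adjusted p = 0.000546) in the Arid5a RIP and 0.18 ± 0.13 in the IgG RIP, with 0.43 ± 0.09 (SE; adjusted p = 0.00342) averaged. The rescaled values were 0.36 ± 0.09 (adjusted p = 0.0428), 0.21 ± 0.10 (adjusted p = 0.441) and 0.28 ± 0.07 (adjusted p = 0.0204).

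Loxl4, a further member of the family, had a log2 fold of 0.60 ± 0.16 (SE; adjusted p = 0.0204) in the Arid5a RIP and 0.29 ± 0.17 in the IgG RIP. The IgG libraries had 99.8, 130.3, 119 and 98.6 CPM of Loxl4 in medium and 119, 147 and 141 CPM with IL-17. Those of Arid5a had 102, 90.5, 98.5 and 109 CPM in medium and 153, 175, 168 and 107 CPM with IL-17. Its Arid5a groups overlapped through replicate 4 with IL-17, and the rescaled fold was 0.28 ± 0.13 (adjusted p = 0.216). Loxl1, Loxl2 and Loxl3 were not called in any comparison.

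Of the collagen maturation genes, Plod2 and P4ha1 were called in the Arid5a RIP. The log2 fold of Plod2 was 1.30 ± 0.21 (SE; adjusted p = 0.000204), from 29.2 ± 6.72 CPM (SD, n = 4) in medium to 72.3 ± 7.01 CPM (SD, n = 4) with IL-17, and 0.25 ± 0.23 in the IgG RIP (adjusted p = 0.761). The 4 Arid5a libraries with IL-17, replicate 4 included, were all above the Arid5a libraries in medium, while the IgG groups overlapped. Rescaled, the fold of Plod2 was 1.00 ± 0.21 (adjusted p = 0.00962) in the Arid5a RIP. The difference between the RIPs was not called, as given above. P4ha1 had 0.68 ± 0.15 (SE; adjusted p = 0.00633) in the Arid5a RIP, 0.36 ± 0.13 (adjusted p = 0.127) rescaled, and was not called without Arid5a IL-17 replicate 2 (adjusted p = 0.0515). Plod1, Plod3, P4ha2, P3h1, Serpinh1 and Pcolce were not called.

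With the control antibody, Serpinh1 stood at 1091, 1162, 1073 and 1022 CPM in medium and 998, 1015 and 1087 CPM after IL-17. Arid5a RIPs gave 1037, 958, 854 and 936 CPM in medium and 1270.0, 1268, 1205 and 906 CPM after IL-17. Replicates 1 to 3 of the Arid5a RIP with IL-17 were the highest of the 15 libraries and replicate 4 was among the lowest. For Serpinh1 the log2 fold was 0.30 ± 0.12 in the Arid5a RIP (adjusted p = 0.142) and -0.07 ± 0.13 in the IgG RIP.

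Of the basement membrane genes, Lamc1 was the 1 of 6 called in the Arid5a RIP, at 0.53 ± 0.15 (SE; adjusted p = 0.0268), or 0.21 ± 0.12 (adjusted p = 0.306) rescaled. Without IL-17, the IgG libraries held 229, 165, 226 and 194 CPM of Lamc1 and the Arid5a libraries 183, 201, 179 and 171 CPM. After IL-17 the IgG libraries held 247, 212 and 246 CPM and the Arid5a libraries 271, 306, 294 and 188. Its Arid5a groups overlapped, again through replicate 4. Hspg2, the most abundant of the 6, was not called in any comparison.

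Hspg2 levels in medium were 814, 745, 685 and 639.5 CPM with IgG and 703, 534, 558 and 635 CPM with Arid5a. Under IL-17 they came to 712, 601 and 906 CPM with IgG and 820.1, 799, 755 and 569 with Arid5a. The libraries of all 4 groups overlapped. Hspg2 had a log2 fold of 0.28 ± 0.14 in the Arid5a RIP and 0.04 ± 0.15 in the IgG RIP.

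**Figure D4:**
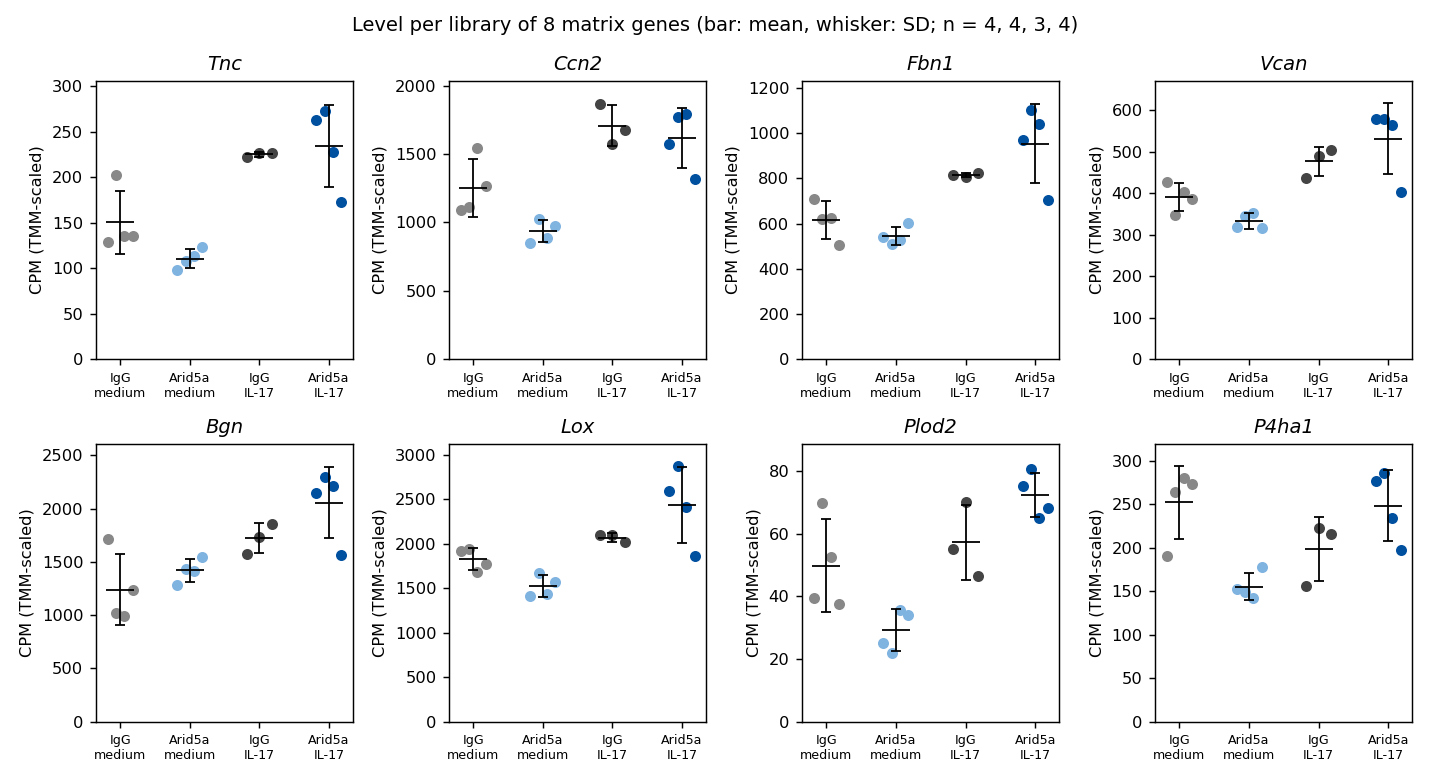
Level of 8 matrix genes in each library as CPM scaled by TMM factors, by group; dots are libraries, horizontal bars group means and whiskers SD (n = 4, 4, 3 and 4). For Tnc, Ccn2, Fbn1, Vcan and Lox the libraries with IL-17 lie above those in medium for each antibody, and for P4ha1 and Plod2 the Arid5a libraries in medium lie below the other groups' means.

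**Figure D5:**
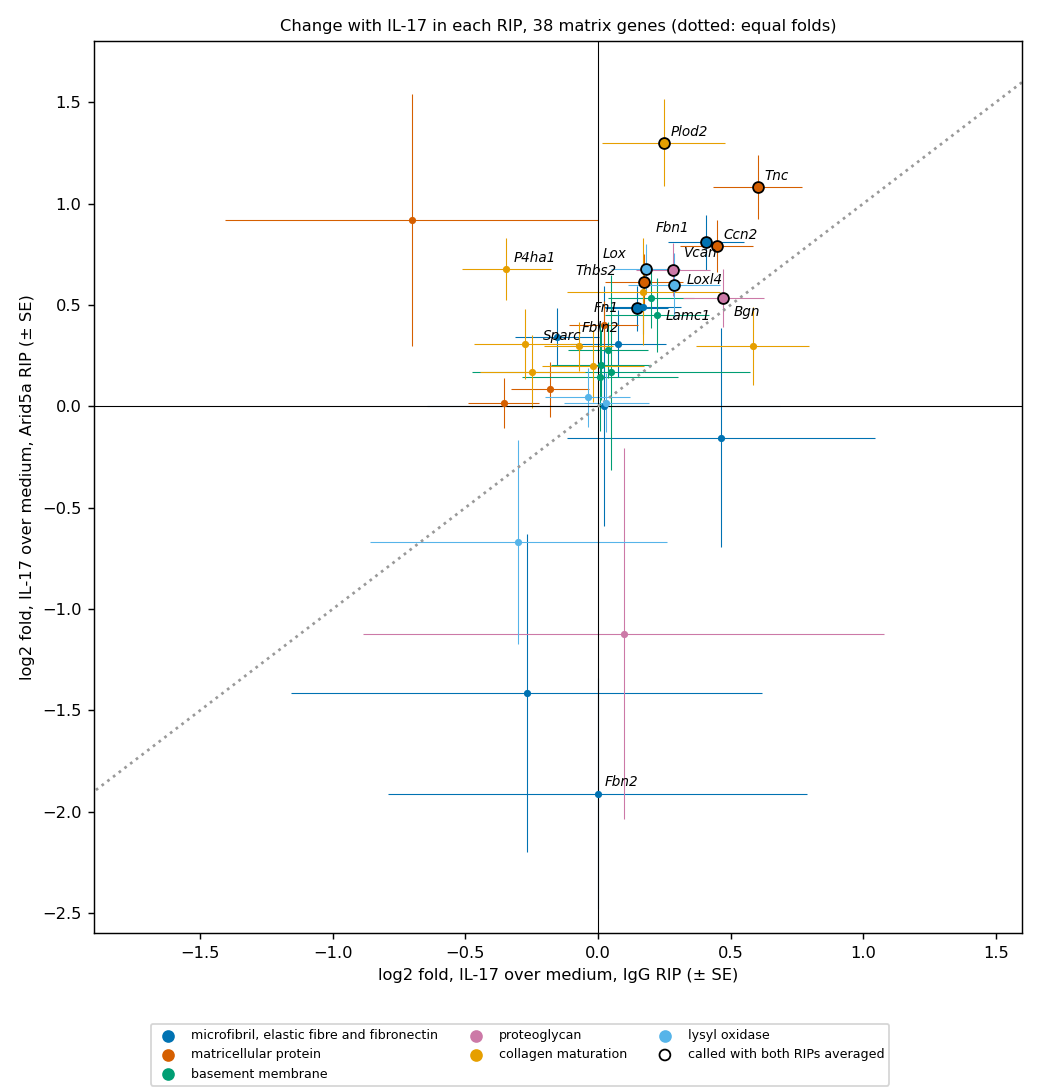
Log2 fold of IL-17 over medium in the Arid5a RIP against that in the IgG RIP for the 38 tested matrix genes (± SE, coloured by role); rings mark the 10 genes called with both antibodies averaged, and the dotted line marks equal folds. Tnc lies at 0.60 and 1.08, Plod2 at 0.25 and 1.30, and most of the well-expressed matrix genes lie above the dotted line; the median over all well-expressed genes is 0.30 for Arid5a and -0.04 for IgG.

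For Tnc, which had the smallest adjusted p with IL-17 of the matrix genes, and P4ha1, the 1 matrix gene called in the difference of ratios with TMM factors, the bases just upstream of the gene model are shown, from RefSeq on GRCm38.p6, read 5′ to 3′ on the gene's strand. Capitals mark matches on either strand to the letters GGGNNNNNCC, a loose form of the NF-kB motif, NF-kB being a factor through which IL-17 acts, and to GCGTG, which is 1 form of the hypoxia response core.
Tnc: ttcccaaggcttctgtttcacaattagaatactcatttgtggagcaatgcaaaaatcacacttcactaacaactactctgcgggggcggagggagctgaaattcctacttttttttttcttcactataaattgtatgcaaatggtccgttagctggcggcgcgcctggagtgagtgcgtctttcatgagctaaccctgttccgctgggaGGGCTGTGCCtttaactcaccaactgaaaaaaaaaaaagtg
P4ha1: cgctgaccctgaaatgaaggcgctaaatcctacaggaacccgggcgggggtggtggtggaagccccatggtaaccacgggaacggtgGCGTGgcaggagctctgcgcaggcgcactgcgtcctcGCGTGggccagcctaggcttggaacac
The Tnc sequence is chr4:64047016-64047265, on the minus strand, and the P4ha1 sequence is chr10:59323046-59323196, on the plus strand; bases inside the gene model are left out, and matches that reach into them are not marked. In the 250 bases upstream of the annotated start, 32 windows of 24 of the matrix genes were held in the table used. GGGNNNNNCC was found in 22 of the 32, beside 45.8% of 32851 windows of all genes; GCGTG in 15 of 32, beside 28.2%; ACGTG, the other hypoxia response core, in 8 of 32, beside 16.6%; and TGANTCA, the AP-1 motif, in 0 of 32, beside 6.7%. The windows were counted whole, with any bases inside a gene model kept. P4ha1 was counted for GGGNNNNNCC and ACGTG as well as GCGTG, although its printed bases show GCGTG alone. Windows of 1 gene can overlap, the motifs can overlap each other, and a match describes letters only. All 40 genes matched the RefSeq annotation, and 13 of them overlap another gene model. These are Fbn2, Eln, Tnc, Postn, Ccn2, Lamc1, Nid2, Hspg2, Vcan, Plod2, Plod3, Loxl2 and Loxl3, and how reads in an overlap were assigned is not given in the sources used here.

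The 4 lists of neighbouring pathways, which hold none of the 40 genes, were read in the same fits. Of the 43 genes for glycosaminoglycan chain synthesis, 4 were called higher with IL-17 in the Arid5a RIP and 0 lower (9.3% higher, beside 4.84% of all genes and 15.5% of the well-expressed; median log2 fold 0.13): Ext1, a heparan sulphate polymerase (1.00 ± 0.15), Ugdh, which makes UDP-glucuronate (0.96 ± 0.15), Has2, a hyaluronan synthase (0.99 ± 0.18), and Chsy1, a chondroitin synthase (0.66 ± 0.18). Of 28 tested matrix receptors, 4 were higher and 0 lower (14.3% higher; median 0.33): the integrin subunits Itga5 (0.99 ± 0.15), Itgb1 (0.65 ± 0.13) and Itgav (0.75 ± 0.16) and the hyaluronan receptor Cd44 (0.64 ± 0.16). Itga5 with Itgb1 forms the main fibronectin receptor.

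Of 68 other matrix proteins tested, 5 were called higher and 1 lower in the Arid5a RIP (7.35% higher, near the share of all genes; median -0.04), with Sdc4, a cell-surface heparan sulphate proteoglycan (1.11 ± 0.15), Ccn4 (0.98 ± 0.15) and Igfbp7 (0.90 ± 0.17) the strongest risers. Of the 24 other collagen and elastin processing enzymes 0 were called there by edgeR's quasi-likelihood test. At an unadjusted p under 0.05, 6 were higher and 0 lower. Beside this stood 13.1% and 9.18% of all genes, and 39.1% and 1.97% of the well-expressed. In the IgG RIP, Ext1 (0.75 ± 0.16) and Cd44 (0.74 ± 0.17) were called higher. For Arid5a over IgG, Ecm1 was called lower in medium, at -0.76 ± 0.17 (adjusted p = 0.0273), and the ratio of Ugdh was higher with IL-17, by 0.99 ± 0.22 (adjusted p = 0.0239). Neither call held after rescaling, where 0 of all 17835 genes tested were called in either of these comparisons. The median log2 fold over all genes tested with IL-17 in the Arid5a RIP was -0.12. Rescaled, the medians were -0.17 for glycosaminoglycan synthesis, 0.02 for the receptors, -0.30 for the other matrix proteins and -0.07 for the processing enzymes, beside -0.41 for all genes tested; 3, 1, 3 and 0 genes of these lists were then called higher and 1, 0, 1 and 0 lower.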

How the data were processed

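RNA from Arid5a and control IgG immunoprecipitates of ST2 cells was sequenced with a stranded kit, per the labels' protocols. The deposited tables give expected counts per gene and FPKM; per the submitters' processing notes STAR 2.7.9, RSEM 1.3.1, DESeq2 1.36.0, R 4.3.0 and mm10 were used, and the annotation and strand setting are not given in the sources used here. FPKM values were made by the authors and used for levels and 2 alternatives. Expected counts, of which 2.66% to 10.3% per library were not whole numbers, were rounded here. Genes were filtered with filterByExpr, leaving 17835, and tested in 1 edgeR 4.0.16 fit of 4 group means over 15 libraries (TMM factors, robust quasi-likelihood, common biological coefficient of variation 0.341) in R 4.3.3, with Benjamini-Hochberg adjustment over all genes tested. SE is the log2 fold divided by the square root of F. Log2 folds were computed here and are not in the authors' tables. The fit was tested on simulated data.

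Alternatives were upper-quartile factors, library totals, TMM factors from well-expressed genes, DESeq2 1.42.0, limma-voom 3.58.1 with quality weights, limma on log2(FPKM + 1) and log2(FPKM + 0.1), looser and stricter filters, only the libraries compared, a replicate block, and leaving out each library. The members and lists were chosen with earlier results of these data known. Values in every library are given for called members (the 12 with the smallest adjusted p), and in each role for the most abundant member and those with the smallest p; pathway genes are named where called, at most 4 per list and comparison. Promoter bases come from RefSeq (GRCm38.p6). Expected counts per library ranged from 939139 to 5713913; counting error at this depth limits the genes under 10 FPKM.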

Additional observations from a re-analysis of the deposited data

Results flagged for a closer look

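Within groups of 4 libraries, a few values stood far from the other 3, by a criterion that chance meets in about 1 of 20 groups. Tnc was at 202 CPM in replicate 2 of the IgG RIP in medium, the smallest library, beside 129, 202, 136 and 135 over all 4. Vcan was at 403 CPM in replicate 4 of the Arid5a RIP with IL-17, where the others held 564 to 579 CPM. The 4 proteoglycan genes summed to 1975 CPM in that same library, below replicates 1 to 3. Fbln2 was at 384 CPM in replicate 1 of the Arid5a RIP in medium, above the other 3.

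The Arid5a over IgG ratio of P4ha1 differed between IL-17 and medium by 1.02 on the log2 scale (edgeR's quasi-likelihood test of the interaction, adjusted p = 0.0223). The log2 ratio was -0.69 ± 0.16 in medium, where it was called, and 0.33 ± 0.17 with IL-17, where it was not called (adjusted p = 0.562) and the groups overlapped. The rescaled difference was 0.68 ± 0.19 (adjusted p = 0.157), and the difference was also not called with upper-quartile factors, library totals or either FPKM fit. After rescaling 0 of all genes tested were called for this difference, so the lost call is not particular to P4ha1.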

How the results depend on the processing

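Counts of matrix genes called moved as follows. They are given without the share of all genes called under each setting, so they do not set matrix genes apart from others. For Arid5a against IgG in medium the count of 1 became 0 with upper-quartile factors, library totals, well-expressed factors, only the libraries compared, the replicate block, both FPKM fits, and IgG medium 2 and IgG IL-17 4 left out together, 3 with DESeq2 and 2 with limma-voom; leaving out 1 library gave 0 to 1. With IL-17 it was 0 under every setting run. For the difference of ratios the count of 1 became 0 with upper-quartile factors, library totals, well-expressed factors and both FPKM fits and 12 with limma-voom (11 higher, 1 lower); leaving out 1 library gave 0 to 2. Within the Arid5a RIP the 15 calls became 6 with upper-quartile factors, 6 with library totals, 5 with well-expressed factors, 26 with limma-voom (23 higher, 3 lower), 3 with log2(FPKM + 1) and 2 with log2(FPKM + 0.1). Leaving out 1 library gave 7 (without Arid5a IL-17 replicate 2) to 18 (without replicate 4), and 9 without Arid5a IL-17 replicate 1 or 3 or Arid5a medium replicate 3. Within the IgG RIP the count of 0 became 2 with upper-quartile factors, library totals, well-expressed factors and DESeq2, 1 with limma-voom and 1 with both libraries left out together; leaving out 1 library gave 0 to 1. Averaged over both antibodies the 10 became 4 and 3 in the FPKM fits, was 7 to 14 under the other settings, and 7 to 14 with 1 library left out.

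The replicate block gave 0, 0, 1, 14, 0 and 9 calls in the same order as above, beside 1, 0, 1, 15, 0 and 10 without it. Same-numbered libraries deviated with correlations of -0.218 to 0.0824, and differently numbered ones with -0.134 to 0.217. These correlations over all genes tested cannot show whether same-numbered libraries share a culture. The causes of lost calls were not tested. The FPKM fits have no depth weights. With 3 or 4 libraries a group, log2 differences of ratios of well-expressed matrix genes have SEs of 0.16 to 0.40, and genes under 10 FPKM have wider errors.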
